A study of Mus musculus with 11 samples.

Results

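The 10 genes described here act in the G1 and S phases of the cell cycle or mark dividing cells: the cyclins Ccnd1, Ccnd2 and Ccne1, the kinases Cdk2, Cdk4 and Cdk6, the replication proteins Pcna and Mcm2, and the proliferation genes Top2a and Mki67. They were taken by name, 10 of 21883 protein-coding genes, and all 10 symbols were found in the annotation. The data are CUT&RUN profiles of Myc-tagged retinoic acid receptor alpha (RARα) in neural progenitors of the mouse cortex at embryonic day 14, selected with magnetic beads for the surface protein Prom1. CUT&RUN uses an antibody, here against the Myc tag, to direct a nuclease to the DNA around a protein. Of the 11 libraries in the series, 3 control and 3 Foxc1 mutant Myc-tag libraries were analysed, and 5 isotype libraries, of which 3 were control and 2 mutant, are not analysed here. Foxc1 is a transcription factor needed to form the meninges, which make retinoic acid. All groups carry the tagged receptor as far as the labels say. The sources used here do not give the Foxc1 allele, the origin of the tag, the strain of the mice or how many embryos were pooled per library. Peaks of a receptor do not measure expression, so the cell type of the libraries could not be checked against marker genes.

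In G1, D-type cyclins bind Cdk4 and Cdk6 and phosphorylate the retinoblastoma protein, which releases E2F factors. Cyclin E with Cdk2 then starts S phase, in which the MCM helicase opens DNA and PCNA clamps the polymerases to it. The length of G1 in cortical progenitors is known to influence whether they divide again or become neurons, and retinoic acid is known to favour the exit from the cycle in many cell types. RARα binds DNA with an RXR partner at pairs of short core elements close to the letters AGGTCA.

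For each gene, all listed peaks that touched the gene span or the 25 kb on either side of it were taken, and this stretch is called the gene window. The lists held 11869 to 86446 peaks in control and 54112 to 513290 in mutant libraries, so the same gene can have many peaks in a long list and none in a short list. Peak numbers are therefore given as listed, per 10000 peaks of the list, and in equal-length lists of the 11869 peaks with the highest total signal in each library. Peak heights are given in steps, the smallest signal unit of each library. What a step is worth differed between libraries, and the median height of all listed peaks was 10 steps in control replicate 1, 2 steps in control replicates 2 and 3, and 4 steps in each mutant library. Peaks were also wider in control replicate 1, with a median of 2326 bp, against 260 to 304 bp in the other control libraries and 679 to 737 bp in the mutant libraries. Because of this, heights and widths were read within a library only. Whether replicates were separate embryos is not stated, so p-values measure only the spread between these libraries, which may be technical. The smallest p of a two-sided exact permutation test of 3 against 3 libraries is 0.1.

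The windows of the 10 genes held 314 peaks, 48 in control and 266 in mutant libraries, and this number followed the length of the lists. Control replicates 1, 2 and 3 held 33, 6 and 9 of them, and the mutant replicates in the same order held 14, 112 and 140. Every gene had a peak in control replicate 1 and in mutant replicates 2 and 3, which hold the longest lists, while 4 of the 10 genes had a peak in each of the other libraries. Of all protein-coding genes, 88.4%, 28.5% and 54.9% had such a peak in the 3 control libraries, and 76.0%, 96.7% and 96.3% in the 3 mutant libraries. The cell cycle genes thus stood at 40% where all genes stood at 76.0% in mutant replicate 1, 54.9% in control replicate 3 and 28.5% in control replicate 2. In the equal-length list of mutant replicate 1 they stood at 30%, against 31.0% of all genes. In the grid of peak numbers the zeros lie in control replicates 2 and 3 and mutant replicate 1.

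**Figure D1:**
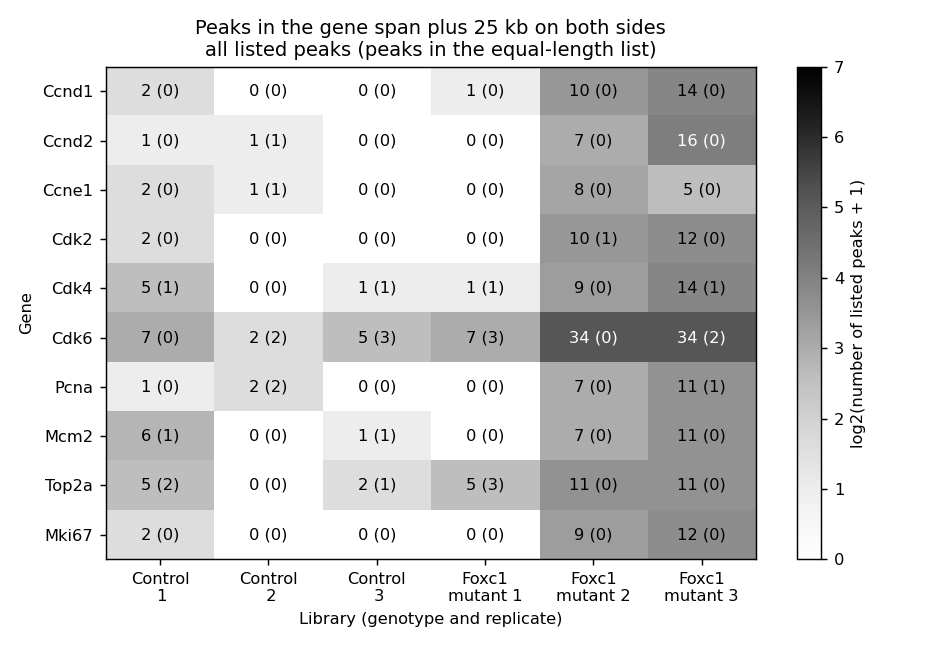
Number of listed peaks in the window of each of the 10 genes (rows) in each library (columns), with the number in the equal-length list in brackets; the grey scale is log2 of the number plus 1. Cdk6 has peaks in all 6 libraries, from 2 to 34, while most other genes have 0 in control replicates 2 and 3 and mutant replicate 1.

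Ccnd1 encodes cyclin D1, which carries growth signals to the G1 kinases. Its gene (chr7:144929931-144939831, mm10) had 2, 0 and 0 peaks in control against 1, 10 and 14 peaks in mutant replicates 1, 2 and 3. Relative to list length this was 0.231, 0 and 0 in control against 0.185, 0.244 and 0.273 per 10000 peaks in mutant libraries, which averaged 0.0771 ± 0.134 against 0.234 ± 0.0448 (SD, n = 3), with p = 0.2 in the exact permutation test. The groups overlapped, because control replicate 1 lay above mutant replicate 1. None of these peaks entered an equal-length list, and the best placed of them ranked 13874 by total signal, in mutant replicate 2. In control replicate 1 the tallest Ccnd1 peak was 9 steps high, and 73.4% of all peaks of that list were at least as high. In mutant replicate 3 a pair of adjacent peaks of 7 steps, at 144913620-144914483 and 144914616-144915275, was among the highest 6.07% of the list. Both reached into Bc1, a gene for a small neuronal RNA, and the second of them also touched the edge of LTO1.

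Ccnd2, a D-type cyclin associated with cortical progenitors that divide again, had 1, 1 and 0 peaks in control against 0, 7 and 16 peaks in mutant replicates 1, 2 and 3. Its gene (chr6:127125162-127152188) held 1 peak of an equal-length list, 166 bp wide and 3 steps high in control replicate 2, 12.3 kb inside the gene. In its full list, control replicate 1 had a peak of 11 steps 3.91 kb inside the gene, and mutant replicates 2 and 3 had peaks of 4 steps that touched it. Per 10000 peaks the values were 0.116, 0.843 and 0 in control against 0, 0.17 and 0.312 in mutant libraries, a difference of -0.159 (exact permutation p = 0.9). The groups overlapped, and without control replicate 2 the difference turned to 0.103.

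Cdk4, a kinase partner of the D-type cyclins, had the only peak over a transcription start among the 8 genes whose start was in the promoter table. Its gene (chr10:127063535-127067288) is short and crowded, with 6 other protein-coding genes in the window. Peak numbers were 5, 0 and 1 in control against 1, 9 and 14 in mutant replicates 1, 2 and 3, or 0.578, 0 and 0.33 against 0.185, 0.219 and 0.273 per 10000. The difference of -0.0773 had an exact permutation p of 0.7, the groups overlapped, and without control replicate 1 it was 0.0604. Cdk4 had a peak in 4 of the 6 equal-length lists, and 2% of the 500 genes nearest to it in length had as many or more. These 4 peaks lay at 4 places. In control replicate 1 the peak was 3788 bp wide and 7 steps high over Marchf9, 4 kb upstream of the gene, and in control replicate 3 it was 353 bp wide and 2 steps high over Agap2. In mutant replicate 1 it was 1018 bp wide and 4 steps high over Cyp27b1, 9.69 kb upstream. Of these 4, only the peak of mutant replicate 3 touched Cdk4 itself. It ran from 127063026 to 127064935, was 1910 bp wide and 6 steps high, ranked 5338 of 513290, and had its summit 0.14 kb downstream of the transcription start. In the full list of control replicate 1, peaks of 11 steps also touched the body (127064204-127065764) and the end of Cdk4 (127067028-127069225), and 39% of the peaks of that list were at least as high. The first of them overlapped the peak of mutant replicate 3 over the start. Mutant replicate 2 had peaks of 4 steps (127064018-127064386) and 3 steps (127065057-127066447) in the gene. Bases within Cdk4 were thus shared by these 3 libraries of both genotypes.

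Promoter sequences of 300 bases (250 before to 50 after the transcription start, RefSeq, GRCm38.p6) were found for 8 of the 10 genes, and Cdk4 in mutant replicate 3 was the only case of a peak touching any of them in any library. Over 17491 protein-coding genes with a promoter in the table, the share touched by a peak was 14.2%, 0.2% and 0.292% in control against 2.03%, 14.4% and 33.0% in mutant replicates 1, 2 and 3. The 3 promoters that hold the letters AGGTCA on either strand are shown because they are the closest matches to the receptor's core element, and only the first of them had a peak. Capitals mark the core elements, searched on both strands: AGGTCA and its variants AGTTCA or else GGGTCA or else GGTTCA. Matches on the other strand read as their reverse complement.
Cdk4, chr10:127063285-127063584, + strand: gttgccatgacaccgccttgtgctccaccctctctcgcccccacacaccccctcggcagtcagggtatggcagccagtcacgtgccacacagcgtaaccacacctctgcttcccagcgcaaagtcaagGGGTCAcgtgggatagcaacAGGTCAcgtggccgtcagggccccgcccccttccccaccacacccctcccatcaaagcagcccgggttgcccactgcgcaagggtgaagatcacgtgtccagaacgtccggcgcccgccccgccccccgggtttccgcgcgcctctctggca
Mcm2, chr6:88898731-88899030, - strand: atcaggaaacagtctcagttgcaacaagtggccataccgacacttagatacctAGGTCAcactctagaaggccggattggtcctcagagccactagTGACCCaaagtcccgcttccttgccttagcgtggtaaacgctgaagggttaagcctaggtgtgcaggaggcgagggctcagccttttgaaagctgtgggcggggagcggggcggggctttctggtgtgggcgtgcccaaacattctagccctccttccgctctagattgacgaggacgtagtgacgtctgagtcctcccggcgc
Pcna, chr2:132253131-132253430, - strand: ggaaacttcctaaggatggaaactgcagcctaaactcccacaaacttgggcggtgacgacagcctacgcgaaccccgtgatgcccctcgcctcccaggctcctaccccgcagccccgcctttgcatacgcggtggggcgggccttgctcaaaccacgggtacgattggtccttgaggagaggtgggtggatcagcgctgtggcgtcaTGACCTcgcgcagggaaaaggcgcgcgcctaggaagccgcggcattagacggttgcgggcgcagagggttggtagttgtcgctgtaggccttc

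In the Cdk4 promoter the core elements GGGTCA and AGGTCA started at positions -122 and -102 from the transcription start, on the same strand. At least 1 core element was found in 7 of the 8 promoters (all but Ccne1) and in 41.0% of all 17491. Direct repeats of core elements with a spacer of 1, 2 or 5 bases, the arrangements classically bound by RAR and RXR, were in none of the 8 and in 0.183%, 0.0858% and 0.0858% of all promoters. An E2F site (TTTCCCGC, TTTCGCGC, TTTGCCGC or TTTGGCGC on either strand) was in the Cdk2 promoter alone of the 8, at positions -140 to -133, and in 2.92% of all promoters. These matches describe letters in a short window and do not show a bound site.

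**Figure D2:**
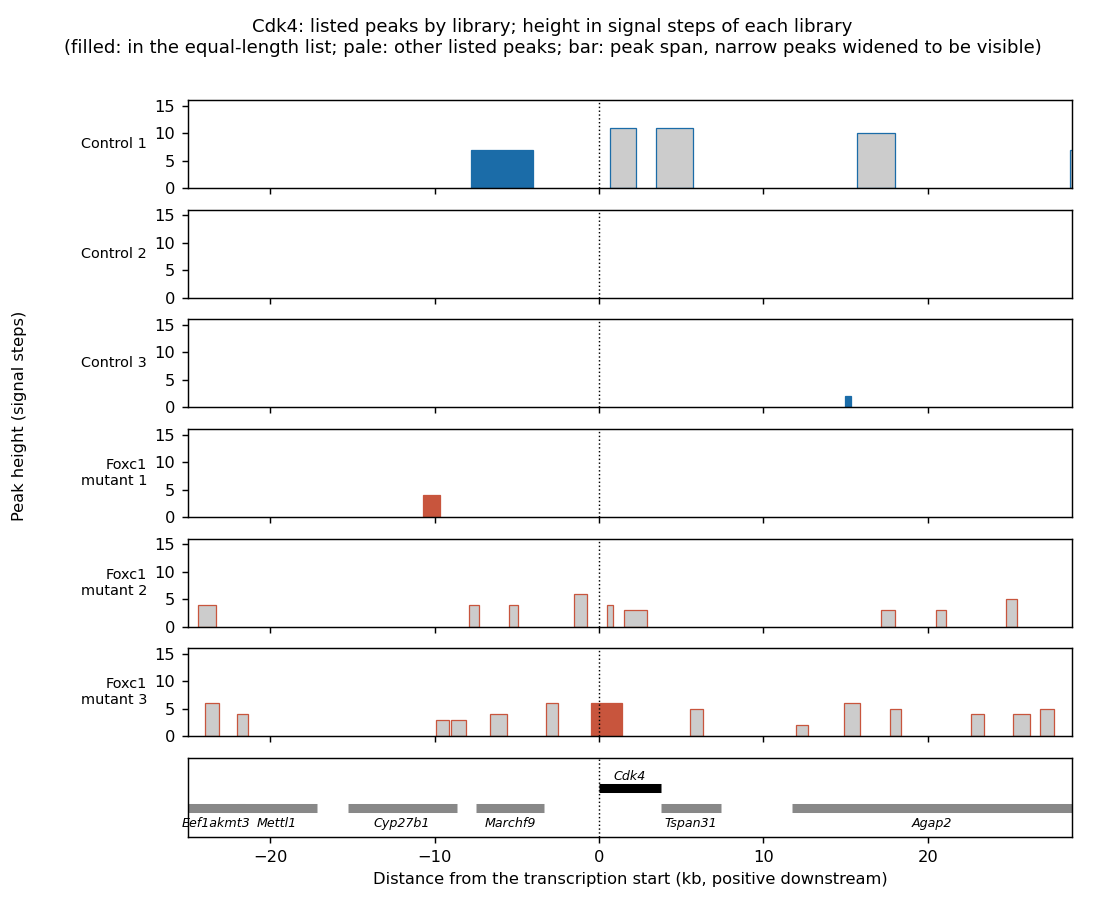
Peaks in the Cdk4 window by library, as distance from the transcription start in kb (x axis) and height in signal steps (y axis); filled bars are peaks of the equal-length lists, pale bars all other listed peaks, and the bottom lane shows protein-coding genes. The filled bars lie at 4 different places, and only that of mutant replicate 3, 6 steps high, spans the start of Cdk4.

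Cdk6, the other kinase partner of the D-type cyclins, had the most peaks of the 10 genes and was the only gene with a peak in all 6 lists. It is also the longest (chr5:3341004-3531008, 190 kb), and its window makes up 29.1% of the length of all 10. Peak numbers were 7, 2 and 5 in control against 7, 34 and 34 in mutant replicates 1, 2 and 3. Against the 500 genes nearest in length, with medians of 8, 1 and 2 peaks in control against 5, 37 and 49 in mutant libraries, Cdk6 was above the median in control replicates 2 and 3 and mutant replicate 1 and below it in the other 3 libraries. In mutant replicate 3, 86.6% of those genes had at least as many peaks. Per 10000 peaks Cdk6 had 0.81, 1.69 and 1.65 in control against 1.29, 0.828 and 0.662 in mutant libraries. The means were 1.38 ± 0.496 and 0.928 ± 0.327 (SD, n = 3), a difference of -0.454 with an exact permutation p of 0.3. The groups overlapped, since control replicate 1 lay among the mutant libraries, and without that library the difference was -0.74.

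In the equal-length lists Cdk6 had 0, 2 and 3 peaks in control against 3, 0 and 2 in mutant replicates 1, 2 and 3, so that it was called in 4 of 6 libraries. Of the 500 genes nearest in length 57.2% were called in as many or more. The best placed peak was in mutant replicate 1, from 3527561 to 3528805, 5 steps high and 1245 bp wide, and ranked 227 of 54112. It lay 2.2 kb inside the 3′ end of the gene. The best of control replicate 3 ranked 1207, from 3531956 to 3532415, 5 steps high, 0.948 kb beyond the same end, and 1.53% of the peaks of that list were at least as high. The 2 peaks did not touch each other. In the full list of mutant replicate 3, the tallest Cdk6 peak was 9 steps high (3543411-3543849), 12.4 kb beyond the 3′ end. It was among the highest 0.7% of that list but not in the equal-length list. Inside the gene, control replicate 3 (3389725-3390298, 2 steps) and mutant replicate 1 (3389229-3390126, 4 steps) had overlapping peaks in their equal-length lists, with summits 46.2 and 45.9 kb downstream of the transcription start. Control replicates 2 and 3 overlapped at 3456406-3456814 with 2 steps in each, the only stretch in the 10 windows that was called in more than 1 control library and in no mutant library.

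A stretch inside Cdk6 was called in all 3 mutant libraries and in no control library. It ran from 3362577 to 3363826, with summits 18.9 to 19.4 kb downstream of the transcription start. The peaks were 4, 4 and 6 steps high in the 3 mutant replicates and shared 74 bp (3363033-3363106). It was the only such stretch in the 10 windows. Windows with a stretch of this kind made up 15.8% of all genes and 40% of the 500 genes nearest to Cdk6 in length. In mutant replicate 1 the peak ranked 24948 of 54112, and in none of the 3 libraries did it enter the equal-length list. The map of the Cdk6 window shows that its peaks were spread along the gene and not gathered at the start.

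**Figure D3:**
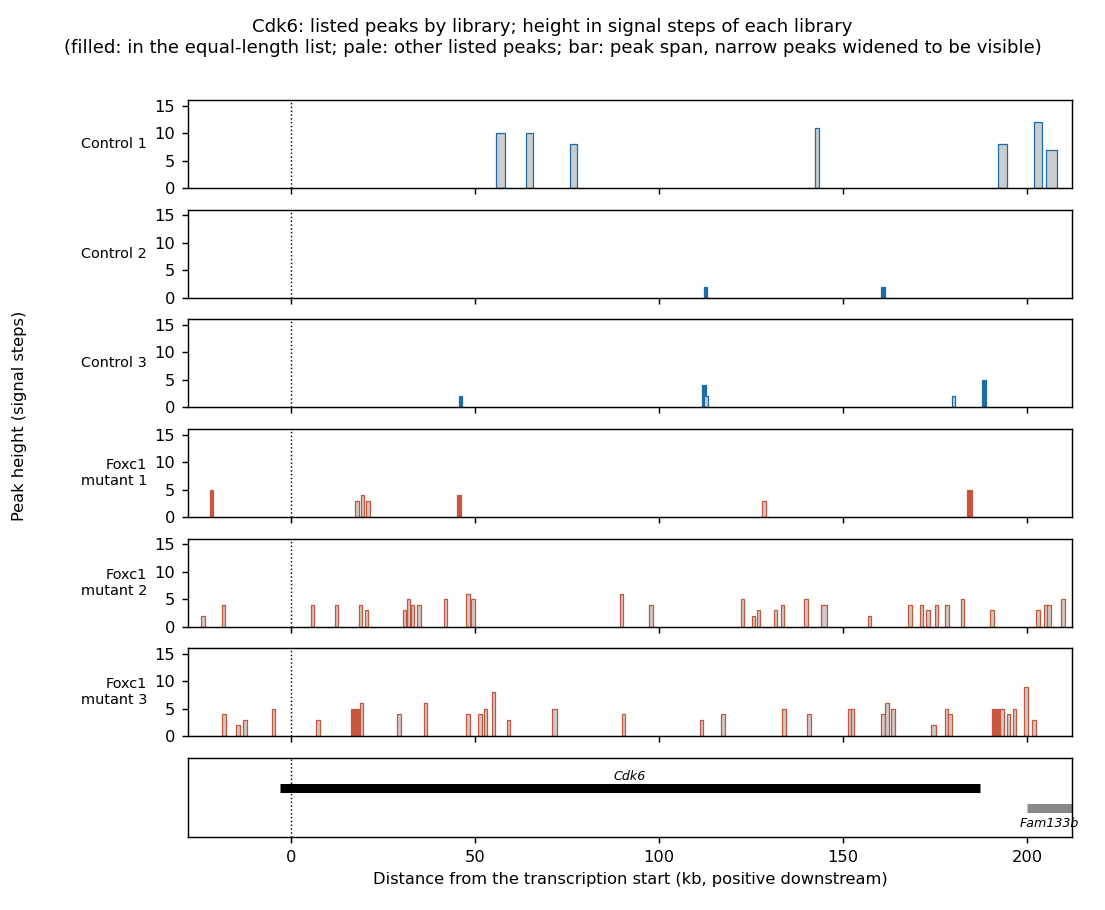
Peaks in the Cdk6 window by library, as distance from the transcription start in kb (x axis) and height in signal steps (y axis); filled bars are peaks of the equal-length lists, pale bars all other listed peaks, and the bottom lane shows protein-coding genes. No peak covers the start at 0 kb in any library, and the 34 peaks each of mutant replicates 2 and 3 are spread along the gene.

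Cyclin E1 (Ccne1) and its kinase Cdk2 start S phase. Neither had more than 1 peak in the equal-length lists. Ccne1 (chr7:38097984-38107490) had 2, 1 and 0 peaks in control against 0, 8 and 5 in mutant replicates 1, 2 and 3. Its single peak in an equal-length list was in control replicate 2, 365 bp wide and 3 steps high, 20 kb outside the gene. Per 10000 peaks the values were 0.231, 0.843 and 0 in control against 0, 0.195 and 0.0974 in mutant libraries (difference -0.261, exact permutation p = 0.5). Both groups held a library at 0, and without control replicate 2 the difference was -0.0183. Cdk2 (chr10:128697938-128705051) had 2, 0 and 0 peaks in control against 0, 10 and 12 in mutant libraries, and none of the 24 touched the gene span. In mutant replicates 2 and 3 this was above the medians of 8 and 9 peaks for genes of like length. Its neighbours Pmel, Rab5b, Dgka and Suox fill most of the window. The tallest Cdk2 peak of control replicate 1 had 14 steps and lay between Suox and Rab5b (128674828-128676129). That of mutant replicate 2 had 9 steps and lay over Rab5b (128679288-128680282), among the highest 0.482% of its list. The only peak in an equal-length list was in mutant replicate 2, over Pmel, 6 steps high and 8.5 kb from the gene. Per 10000 peaks Cdk2 had 0.231, 0 and 0 in control against 0, 0.244 and 0.234 in mutant libraries (difference 0.082, exact permutation p = 0.4), again with groups that overlapped. Leaving out 1 library gave differences from 0.0398 (without mutant replicate 2) to 0.162 (without mutant replicate 1).

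Mcm2, a subunit of the replicative helicase, had 6, 0 and 1 peaks in control against 0, 7 and 11 in mutant replicates 1, 2 and 3 (gene at chr6:88883474-88898780). In control replicate 1 its 6 peaks stood above the median of 2 for genes of like length, and 4% of those genes had as many or more. Both of its peaks in equal-length lists were in control libraries and lay side by side over the neighbour Tpra1, more than 10 kb upstream of Mcm2, without touching. That of control replicate 3 ended at 88909546 (3 steps, 333 bp) and that of control replicate 1 began at 88909552 (10 steps, 4739 bp). No control peak touched the Mcm2 gene span. Per 10000 peaks Mcm2 had 0.694, 0 and 0.33 in control against 0, 0.17 and 0.214 in mutant libraries (difference -0.213, exact permutation p = 0.5), and the groups overlapped. The difference was -0.0369 without control replicate 1 and -0.384 without control replicate 2.

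Pcna, the sliding clamp of the replication fork, had 1, 2 and 0 peaks in control against 0, 7 and 11 in mutant replicates 1, 2 and 3 (gene at chr2:132249286-132253180). The 2 peaks of control replicate 2 were both in the equal-length list, and 1.2% of the 500 genes of like length had as many or more in that library. The better placed of them ranked 1035, was 576 bp wide and 3 steps high (132244824-132245399), and lay over the neighbour Tmem230, 3.89 kb from Pcna. Mutant replicate 2 had peaks at both of these places, of 5 steps each (132244921-132245253 and 132235635-132236418), though neither was in its equal-length list. In mutant replicate 3 a peak of 2172 bp and 6 steps (132247251-132249422, rank 2846) lay mostly over Tmem230, with its summit there, and reached the end of Pcna opposite to its start, and mutant replicate 2 had a peak of 4 steps over the same place. Per 10000 peaks Pcna had 0.116, 1.69 and 0 in control against 0, 0.17 and 0.214 in mutant libraries, a difference of -0.472 (exact permutation p = 0.9). It rested on control replicate 2 and was 0.0704 without that library.

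Top2a, a topoisomerase made in S phase and G2, had 5, 0 and 2 peaks in control against 5, 11 and 11 in mutant replicates 1, 2 and 3. The gene (chr11:98992947-99024199) lies near Rara, the gene that encodes RARα, and the window reaches into Rara. In mutant replicate 1 the 5 peaks of Top2a compared with a median of 1 for genes of like length, of which 5% had as many or more. Top2a was called in 3 of the equal-length lists, with 2, 0 and 1 peaks in control against 3, 0 and 0 in mutant replicates 1, 2 and 3. These peaks were of 9 steps in control replicate 1, over the neighbour Gjd3 (98980474-98985616, rank 2729) and over the 3′ end of Top2a (98988942-98993054). Control replicate 3 had a peak of 2 steps in the gene (98994652-98994957). Mutant replicate 1 had peaks of 4, 5 and 3 steps, the middle of them within the gene (99010001-99010949) and the last over Igfbp4. The stretch over Igfbp4, 99046497-99049041, was called in control replicate 3 and all mutant libraries, at 2 steps and at 3, 4 and 3 steps. At most 3 of these libraries shared a base there. Within the part of Rara in this window, mutant replicates 1, 2 and 3 had 1, 1 and 2 peaks of 3 to 5 steps. No control library had any there. Calls in mutant libraries alone were common. The lists of mutant replicates 2 and 3 were the longest, with 410562 and 513290 peaks. That of mutant replicate 1 held 54112, against 86446 in control replicate 1. The part that list length plays in these calls was not tested. Regions called in mutant libraries alone made up 80.1% of the merged regions in the windows of the listed genes and 84.8% over the whole lists. Whether Rara differs from this background was not tested. Per 10000 peaks Top2a had 0.578, 0 and 0.661 in control against 0.924, 0.268 and 0.214 in mutant libraries (difference 0.0557, exact permutation p = 1). The groups overlapped, and the difference turned to -0.151 without control replicate 2 and to -0.172 without mutant replicate 1.

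Mki67 encodes Ki-67, a protein of dividing cells that coats mitotic chromosomes. It had 2, 0 and 0 peaks in control against 0, 9 and 12 in mutant replicates 1, 2 and 3 (gene at chr7:135689784-135716450), and like Ccnd1 none in any equal-length list. Of the 500 genes nearest in length, 16.8% also had none in any. In control replicate 1 its tallest peak was of 12 steps (135727234-135728924), 10.8 kb upstream of the gene. The tallest of mutant replicates 2 and 3 were of 5 and 6 steps, over the neighbour Ptpre. In control replicate 1 and mutant replicates 2 and 3, 25.4%, 34.7% and 16.8% of all listed peaks were at least as high as these. Per 10000 peaks the values were 0.231, 0 and 0 in control against 0, 0.219 and 0.234 in mutant libraries (difference 0.0739, exact permutation p = 0.7). Leaving out 1 library gave differences from 0.0325 (without mutant replicate 3) to 0.151 (without control replicate 1).

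Across the 10 genes, no control and mutant groups were separate. The difference was positive for 4 genes (Ccnd1, Cdk2, Top2a, Mki67) and negative for 6, with a median of -0.118 per 10000, against 0.0197 over all genes, of which 54.2% had a positive and 43.2% a negative difference. Groups without overlap were found for 0 of the 10 genes, against 8.1% of all genes with mutant above control and 3.6% with control above mutant. With Benjamini-Hochberg adjustment over all 21883 genes the adjusted p of the exact permutation test was 0.984 or 1 for each of the 10, and its smallest value for any gene was 0.855. No gene had an unadjusted p under 0.05, which this design cannot give.

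**Figure D4:**
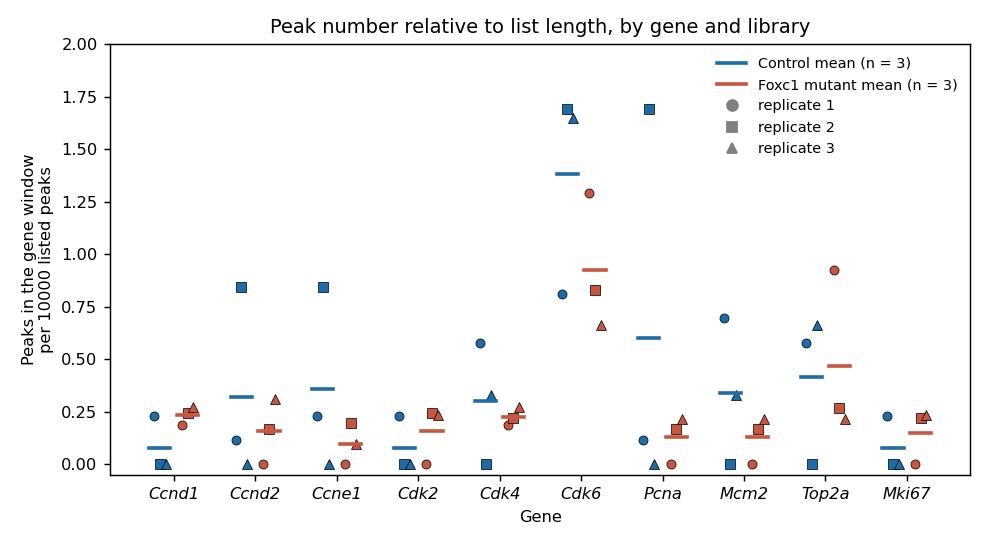
Peaks in the gene window per 10000 listed peaks (y axis) for each gene (x axis) in control (blue) and Foxc1 mutant (red) libraries; symbols are replicates and horizontal lines group means (n = 3). The groups overlap for every gene, and the high control values of Ccnd2 (0.843), Ccne1 (0.843) and Pcna (1.69) come from replicate 2, the shortest list.

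Summed over the 10 windows, the control libraries had 3.82, 5.06 and 2.97 and the mutant libraries 2.59, 2.73 and 2.73 peaks per 10000. The means were 3.95 ± 1.05 and 2.68 ± 0.0811 (SD, n = 3), with every control library above every mutant library. As the 10 genes were chosen, this sum has no test. In control replicate 2 it came from 6 peaks and in control replicate 3 from 9, and the difference of -1.27 was -0.714 without control replicate 2. Without Cdk6, left out after the values were seen, the sums were 3.01, 3.37 and 1.32 in control against 1.29, 1.9 and 2.07 in mutant libraries, and the groups overlapped. Averaged over all protein-coding genes, the peaks per gene window were 0.423, 0.341 and 0.348 per 10000 in control against 0.385, 0.367 and 0.361 in mutant libraries, while the 10 genes had 0.382, 0.506 and 0.297, and 0.259, 0.273 and 0.273.

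With lists of equal length, 3, 4 and 4 of the 10 genes were called in control against 3, 1 and 3 in mutant replicates 1, 2 and 3, or 36.7% ± 5.77 and 23.3% ± 11.5 (SD, n = 3). Of all genes 36.0%, 28.5% and 28.6% had a peak in these control lists and 31.0%, 26.6% and 25.7% in the mutant lists. Genes of like length gave 3.41, 2.52 and 2.58 expected genes of 10 in control against 2.86, 2.4 and 2.28 in mutant lists. The count of the cell cycle genes was thus within 2 genes of this background in every library. The number of equal-length lists with a peak was 0 for Ccnd1 and Mki67, 1 for Ccnd2, Ccne1 and Cdk2, 2 for Pcna and Mcm2, 3 for Top2a and 4 for Cdk4 and Cdk6. Its median was 1.5, against 2 over all genes. At least 1 list called 8 of the 10 genes, at least 2 called 5, at least 3 called 3, at least 4 called 2, and none was called in 5 or 6. Of all genes, 80.0% were called in at least 1 list, 50.8% in at least 2, 26.3% in at least 3, 12.1% in at least 4, 5.21% in at least 5 and 1.88% in all 6.

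**Figure D5:**
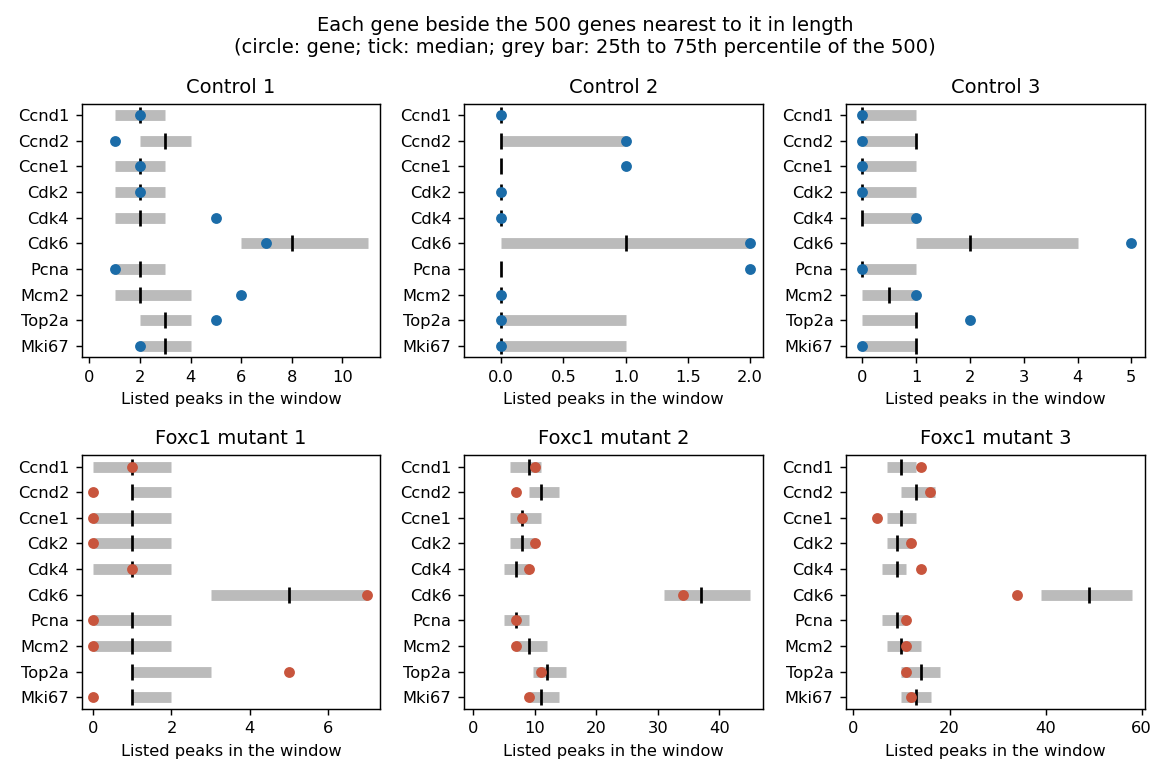
Listed peaks in the window (x axis) of each gene (circles) beside the 500 protein-coding genes nearest to it in length (tick: median; grey bar: 25th to 75th percentile), in 1 panel per library. Circles lie on both sides of the medians; among those beyond the grey bars are Cdk4 (5 peaks) and Mcm2 (6 peaks) in control replicate 1 and Top2a (5 peaks) in mutant replicate 1.

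The peaks lay mostly outside the genes themselves. Of the 314 peaks, 120 (38.2%) touched the span of the listed gene, which makes up 39.4% of the windows' length, and 67 of these were in Cdk6. Of the 194 others, 111 touched another protein-coding gene. In control replicates 1, 2 and 3, 12 of 33, 3 of 6 and 5 of 9 peaks touched the gene span, and in mutant replicates 1, 2 and 3, 8 of 14, 49 of 112 and 43 of 140. For 21 of the 314 peaks the distance to a gene end was at most 1 kb.

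Most peaks were not shared between libraries. Sharing between pairs of libraries was also limited over the whole lists, as the shares given below show, so limited sharing was not particular to these windows. Merged over the 6 lists, the windows held 231 regions, of which 173 were called in 1 library, 46 in 2, 10 in 3 and 2 in 4, and none in 5 or 6. A region joins peaks that overlap in a chain, so the libraries of a region need not all share a base. By genotype, 185 regions were called in mutant libraries alone, 20 in control libraries alone and 26 in both, or 80.1%, 8.66% and 11.3%. Over the whole lists, which hold 977964 mutant and 128588 control peaks, the shares were 84.8%, 5.39% and 9.85% of 805693 regions. The regions called in 4 libraries were that over Igfbp4 near Top2a and that over Agap2 near Cdk4 (127078451-127081896; 10 and 2 steps high in control replicates 1 and 3 and, for mutant replicates 2 and 3, 3 and 6 steps high). Neither lay in a listed gene, and in each at most 3 libraries shared a base. Of the 33 peaks of control replicate 1, 36.4% and 51.5% were touched by a peak of mutant replicates 2 and 3, against 49.1% and 57.1% of all its peaks. Mutant replicates 2 and 3 touched 29.5% of the peaks of replicate 2 and 25% of those of replicate 3 in these windows, against 34.9% and 28.3% in the whole lists. None of the 33 peaks of control replicate 1 was touched by a peak of control replicate 2 or 3, against 1.23% and 2.93% of all its peaks.

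Other genes of the cell cycle were counted in the same way. Of 51 further G1 and S phase genes, 16, 15 and 12 had a peak in the equal-length lists of control and 21, 9 and 11 in those of mutant replicates 1, 2 and 3. Of 25 genes of G2 and mitosis the counts were 9, 6 and 3, and 3, 4 and 2. As shares these were 31.4%, 29.4% and 23.5% against 41.2%, 17.6% and 21.6% for the first list and 36%, 24% and 12% against 12%, 16% and 8% for the second. All genes stood at 36.0%, 28.5% and 28.6% in control lists and 31.0%, 26.6% and 25.7% in mutant lists. The groups overlapped in both lists. No gene of either list passed the adjusted exact permutation test, and groups without overlap in peaks per 10000 were found for 1 of the 51 (mutant higher) and 3 of the 25 (2 with mutant and 1 with control higher), beside 8.1% of all genes with mutant and 3.6% with control higher. The 6 further genes called in the most equal-length lists were Pola1, the catalytic subunit of DNA polymerase alpha, in 6, its primase partner Prim1 in 5, and Rb1 and Rbl1, both of the retinoblastoma family, E2f3, a transcription factor of S phase genes, and Orc1, of the origin recognition complex, in 4 each. All other genes of the lists of 51 and 25 were called in at most 3. Of all genes, 12.1% were called in at least 4 lists, 5.21% in at least 5 and 1.88% in all 6. Pola1 spans a window of 378 kb and had peaks of 10, 2 and 4 steps in control against 5, 7 and 8 steps in mutant replicates 1, 2 and 3. Prim1 had peaks of 11, 2 and 2 steps in control replicates 1, 2 and 3 and of 4 and 6 steps in mutant replicates 2 and 3.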

How the data were processed

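The peak lists of 6 Myc-tag CUT&RUN libraries were used, with group and replicate number from the titles; digitonin was at 0.05%, per the labels' protocols. Peak calling with SEACR on the build mm10 is named per the submitters' processing notes; the version, settings, aligner, read filters, scaling and use of the isotype libraries are not stated there. Each list was deposited per library, with replicates kept apart. Both measurements deposited by the authors are signal (total and maximum per peak). In every library the maxima (checked up to 100 steps) were, to within 0.01, multiples of 1 smallest step. Read depth is unknown, so a window without a peak may still hold bound receptor. Other contigs were left out (0 or 1 peak per library).

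Genes and promoters came from RefSeq tables of GRCm38.p6, the assembly behind mm10. Peaks were counted in the gene span plus 25 kb, from 1 bp of overlap, with Python 3.11.15, numpy 2.4.6 and pandas 2.3.3, and set beside all genes and beside the 500 genes nearest in length. Random genes were not drawn. Differences were tested with two-sided exact permutation tests over 20 assignments, Benjamini-Hochberg adjusted over 21883 genes. The members and lists were chosen with earlier results of these data known. The named genes are all 10 members and up to 6 further genes with a peak in the most equal-length lists. Data for mutant against control were also simulated over 21883 genes. Of 200 genes with added mutant peaks, 198 had groups without overlap, against 14.6% of other genes (in either direction). The number of peaks added per gene is not given here. This recovery therefore does not show whether differences of the size seen in the named genes would be found. Marker lists of cell types were counted as windows only.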

Additional observations from a re-analysis of the deposited data

How the results depend on the processing

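Each gene's difference in peaks per 10000 was set beside 13 alternatives. The replicate block among them changes only the test, so its 10 values kept their sign by construction. Of all 130 values 112 kept their sign, 9 were 0 and 9 turned. Only Ccne1 and Mcm2 kept it under all 13. The smallest exact permutation p was 0.2, which is also the smallest possible p of 2 against 3 libraries. Without single libraries, groups were separate for 0 to 2 of the 10 genes. The difference was 0 in equal-length lists for Ccnd1, Cdk4, Cdk6, Top2a and Mki67 and in the top 5934 peaks for Ccnd1, Cdk2, Top2a and Mki67. The sign turned for Cdk4 in the top 5934 peaks (0.562), for Top2a with windows of 5 kb (-0.00679) and 100 kb (-0.0676), and for Ccnd2 with windows of 100 kb (0.000175). Without single libraries the range was -0.229 to 0.0604 for Cdk4, -0.318 to 0.103 for Ccnd2, -0.772 to 0.0704 for Pcna and -0.172 to 0.183 for Top2a. The summed difference of -1.27 was -2.25 in the top 5934 peaks, -0.814 without Cdk6 (chosen after seeing the data) and -0.714 without control replicate 2. The percent of the 10 genes called in equal-length lists stayed lower in mutant libraries, with differences from -16.7 to -6.67 points. Genes without overlap numbered 2560, 413 in equal-length lists, 188 in the top 5934 peaks (fewer peaks) and 3050 to 8326 without single libraries, where fewer libraries must separate; with windows of 100 kb 1029 were higher in mutant and 1373 in control libraries, against 1772 and 788, and without control replicate 2 these were 2377 and 2735. No pairing by replicate number was seen in the peak counts. Same-numbered libraries had correlations of deviations of 0.014, 0.003 and 0.007 over genes, against -0.024 to 0.014 for the other pairs. Not every library correlated best with its own number. Correlations of counts from such unequal lists cannot settle whether the libraries were prepared in pairs. With a replicate block (smallest possible exact p 0.25) 4996 genes had all pairs in the same direction, none of them among the 10, and the 10 genes' exact p was 0.5 to 1.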

Other observations

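Windows of marker genes of the cell types that the preparation could hold were counted in the equal-length lists as a description of loci, not of expression. Of 8 neural progenitor genes, 2, 0 and 3 had a peak in control against 3, 2 and 3 in mutant replicates 1, 2 and 3. Of 4 neuron genes (Tubb3, Dcx, Neurod6, Tbr1) the counts were 1, 0 and 0 in control against 3, 2 and 4 in mutant libraries. Of 5 meningeal fibroblast genes they were 0, 1 and 1, and 3, 1 and 2, of 4 vessel genes 0 in each control library and 1, 0 and 0 in mutant libraries, and of 4 microglia genes 1, 1 and 0, and 3, 1 and 1. Of all genes, 36.0%, 28.5% and 28.6% had a peak in the 3 control lists and 31.0%, 26.6% and 25.7% in the 3 mutant lists. These counts have no test.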
